A study of Mus musculus with 31 samples.

Results

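RNA levels of Trp53, the gene of the transcription factor p53, and of Mdm2, Cdkn1a and Ccng1, which p53 activates, were examined in mouse embryonic stem (ES) cells with and without Srap1. The 4 genes were chosen by name and found by position, as the listed loci that overlap a fixed interval of mouse build mm9 for each. The intervals were chromosome 11, 69393800 to 69405400 for Trp53; chromosome 10, 117125900 to 117148000 for Mdm2; chromosome 17, 29227900 to 29237700 for Cdkn1a; and chromosome 11, 40562000 to 40568800 for Ccng1. They held 34 of the 143073 loci in the Srap1 KO table and 8 to 14 of the 8882 to 9295 loci in each wild-type table. No mm9 annotation was used, so the interval widths of 11601, 22101, 9801 and 6801 bases were set against gene lengths in RefSeq (GRCm38.p6). These were 11526 bases for Trp53, 21884 for Mdm2, 9744 for Cdkn1a and 6758 for Ccng1. The Srap1 KO loci with the most fragments spanned 22515 bases at Mdm2, 10138 at Cdkn1a and 6750 at Ccng1, close to the gene lengths, and 4619 bases at Trp53.

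The series holds 31 samples, and those used here are 4 wild-type and 2 Srap1 KO RNA libraries, made from total RNA after removal of ribosomal RNA. Both genotypes were ES cells of 129SVxC57/BL6 background that were derived together and grown on gelatin, in medium with serum, leukemia inhibitory factor, the 2i pair of GSK3β and Mek 1/2 inhibitors, and ascorbic acid. The knockout lacks Srap1, listed in RefSeq as a synonym of Hmces, a protein that binds abasic sites in single-stranded DNA. The sources used here do not give the making of the allele or the number of lines. The tables name no gene, so neither the loss of Srap1 RNA nor ES cell markers were checked, and genotype and cell type rest on the labels. The Srap1 KO tables were identical and counted as 1 sample. The 4 wild-type tables were compared in pairs: their typical difference, at 77 to 94 loci with ends within 5 bases, was 0.812 to 1.25 times what counting alone gives. Between any pair, 1 to 5 of these loci differed by more than 4 counting errors, so the tables differ beyond counting at a few loci. With no separate cultures named, they too were counted as 1 sample. Their range is given in place of an SD, and no p-value was computed.

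p53 is kept scarce in undamaged cells and accumulates after DNA damage. It binds DNA as a tetramer, on response elements made of a pair of decamers, and raises transcription of genes that stop the cell cycle, repair DNA or start cell death. Mdm2 encodes the ubiquitin ligase that marks p53 for degradation and is itself a p53 target, which closes a feedback loop. Cdkn1a encodes p21, the inhibitor of cyclin-dependent kinases through which p53 arrests cells in G1, and Ccng1 encodes cyclin G1, a regular member of p53 response signatures. Mouse ES cells express p53 abundantly and are known for a weak G1 checkpoint.

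The stretches around the start sites of the 4 genes were searched for the decamer that is paired in p53 response elements. They are shown with its matches, and because the Srap1 KO table listed Cdkn1a from further upstream than the wild-type tables did. Each run gives 250 bases before and 50 after a RefSeq start (GRCm38.p6), 5′ to 3′ on the strand of the gene. Capitals mark matches to the p53 decamer consensus and, in the first Cdkn1a stretch, also to CATGNNNNNNCATG, which holds the cores of adjacent decamers at their spacing.
Cdkn1a, first start: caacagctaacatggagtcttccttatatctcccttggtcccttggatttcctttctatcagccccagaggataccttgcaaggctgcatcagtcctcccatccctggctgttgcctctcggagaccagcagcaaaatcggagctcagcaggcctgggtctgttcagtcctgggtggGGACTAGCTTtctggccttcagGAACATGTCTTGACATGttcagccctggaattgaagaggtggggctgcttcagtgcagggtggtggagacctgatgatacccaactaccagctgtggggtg
Cdkn1a, second start: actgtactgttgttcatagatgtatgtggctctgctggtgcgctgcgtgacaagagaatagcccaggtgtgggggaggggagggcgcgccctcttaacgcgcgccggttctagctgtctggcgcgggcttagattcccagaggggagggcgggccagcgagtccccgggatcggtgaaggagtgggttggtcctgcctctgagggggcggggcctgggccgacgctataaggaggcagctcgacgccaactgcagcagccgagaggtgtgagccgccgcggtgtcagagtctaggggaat
Mdm2: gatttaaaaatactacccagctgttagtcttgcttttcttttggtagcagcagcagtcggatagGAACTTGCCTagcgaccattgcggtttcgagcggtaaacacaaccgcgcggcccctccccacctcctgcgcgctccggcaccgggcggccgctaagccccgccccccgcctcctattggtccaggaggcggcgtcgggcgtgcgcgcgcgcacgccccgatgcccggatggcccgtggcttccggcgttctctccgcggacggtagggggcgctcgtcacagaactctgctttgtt
Ccng1: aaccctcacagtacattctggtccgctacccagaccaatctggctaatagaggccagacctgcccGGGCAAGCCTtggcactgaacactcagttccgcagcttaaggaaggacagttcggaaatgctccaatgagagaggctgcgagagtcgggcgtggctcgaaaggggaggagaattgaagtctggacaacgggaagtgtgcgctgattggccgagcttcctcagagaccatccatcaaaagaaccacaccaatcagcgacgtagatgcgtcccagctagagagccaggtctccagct
Trp53: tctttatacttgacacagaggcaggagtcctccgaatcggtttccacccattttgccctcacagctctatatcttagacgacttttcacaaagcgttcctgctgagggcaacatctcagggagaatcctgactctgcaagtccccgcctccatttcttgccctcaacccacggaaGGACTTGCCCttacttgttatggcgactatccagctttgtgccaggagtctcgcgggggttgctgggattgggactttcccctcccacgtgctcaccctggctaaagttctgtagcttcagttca

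Each of the 4 genes had at least 1 match to the decamer consensus, which occurred in 8.36% of the 32851 stretches of this length in the RefSeq table. The match began 75 bases before the start at Trp53 (GGACTTGCCC), 186 before it at Mdm2 (GAACTTGCCT) and 185 before it at Ccng1 (GGGCAAGCCT). The first Cdkn1a start had 2 matches, 73 bases (GGACTAGCTT) and 51 bases before it (GAACATGTCT). The second of these overlapped the only match to the paired cores, CATGTCTTGACATG, which began 48 bases before the start. CATGNNNNNNCATG was found in 0.712% of all stretches, and both motifs together in 0.0700%. Both motifs read the same on either strand. The other Cdkn1a start lies 2790 bases further on and had neither motif in its stretch. These are matches of letters, and p53 binding was not measured in the RNA tables.

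The tables give levels in FPKM, fragments per kilobase of transcript and 1000000 fragments, at loci assembled separately from the reads of each library. The bounds around each FPKM value imply the number of fragments behind it. Implied fragments numbered 895779 to 926460 in the wild-type tables and 10804715 in Srap1 KO. One locus on chromosome 17 (39979940 to 39985777 in the first wild-type table), here called the dominant locus, took 61.4% to 62.2% of the fragments in wild type and 3.51% in Srap1 KO. What this locus encodes was not identified, as no mm9 annotation was used. Outside it the Srap1 KO table was 29.97 times as deep as the mean wild-type table, and 11.8 times with it included. Its share and the depth both separate the wild-type tables from Srap1 KO. Differences of library and of genotype therefore cannot be told apart on any scale. The deposited FPKM followed the second ratio: at 99 to 120 loci whose ends lay within 50 bases in both genotypes, the product of length and depth behind FPKM was 10.7 to 11.05 times as large in Srap1 KO. The level of each of the 4 genes over its listed loci is therefore given on 3 scales. These are FPKM, fragments per 1000000 implied fragments (FPM) of all loci, and FPM outside the dominant locus.

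**Figure D1:**
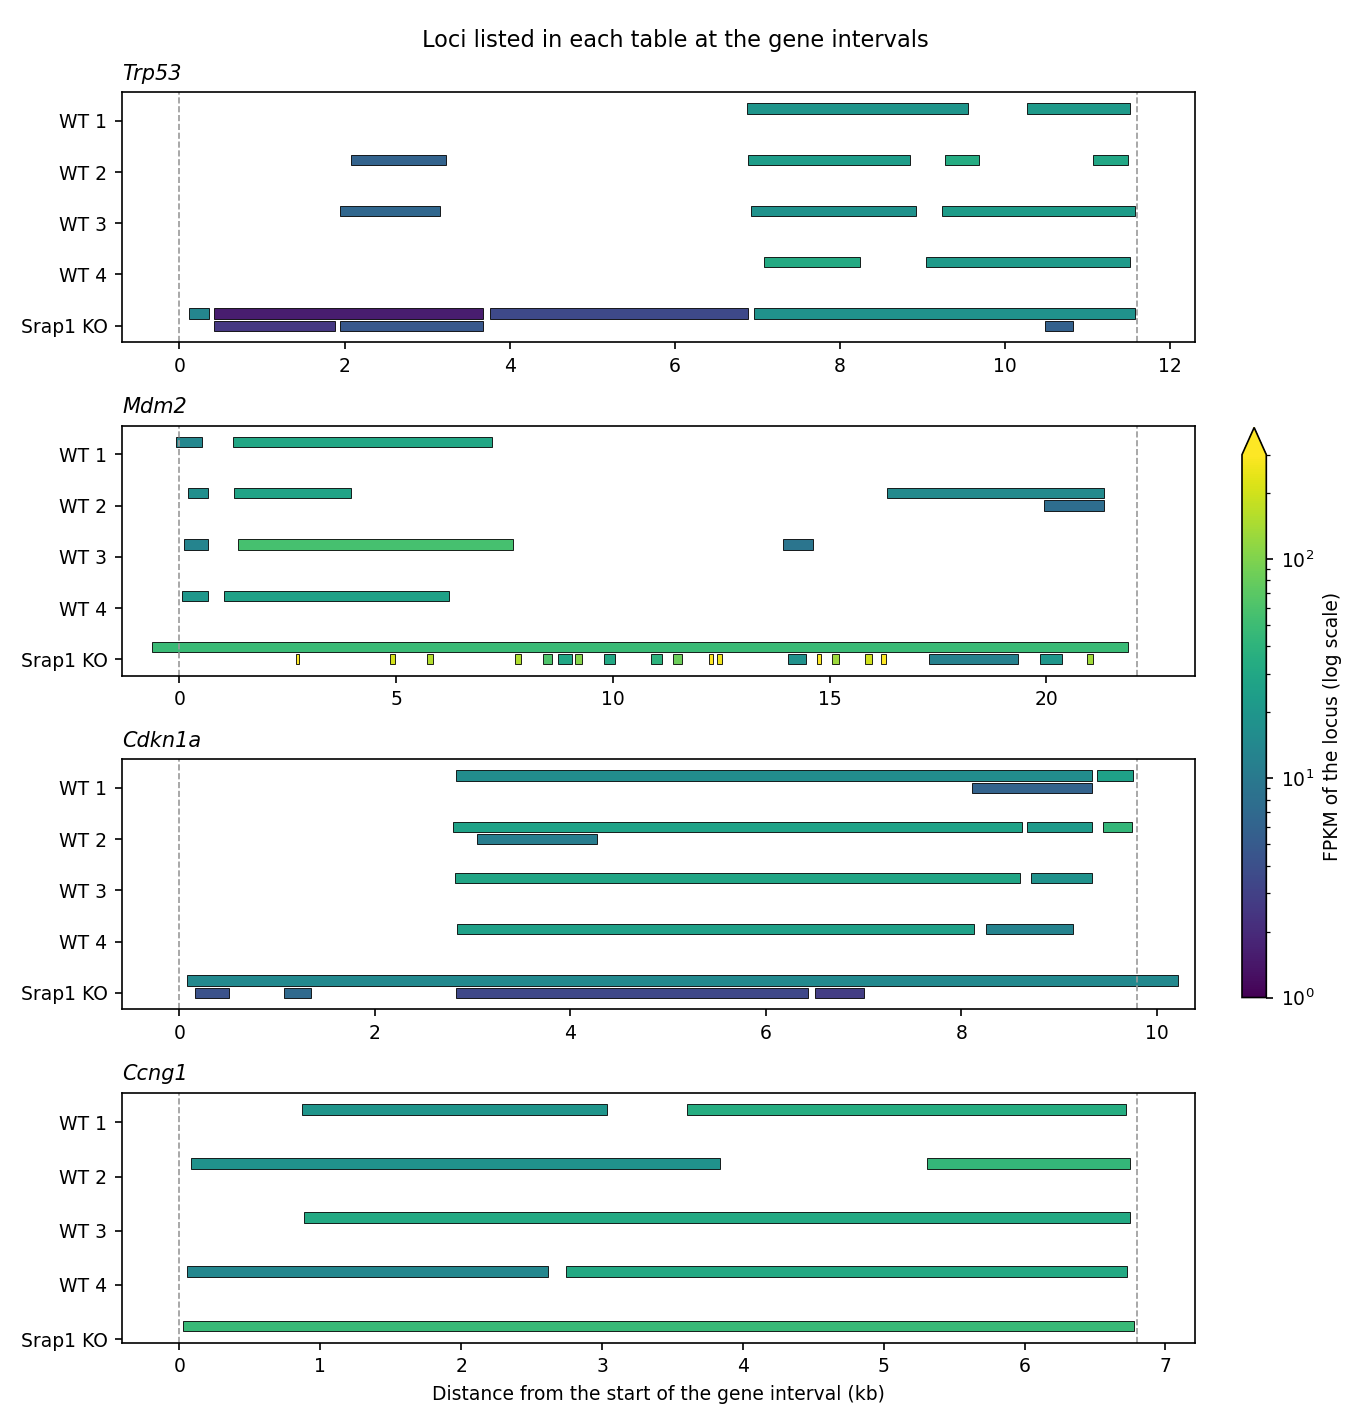
Loci listed at each gene interval in the 4 wild-type tables (WT 1 to WT 4) and the Srap1 KO table, as bars coloured by FPKM on a log scale. The x axis is the distance in kb from the start of the interval, dashed lines mark its ends, and overlapping loci of a table are stacked. Wild-type loci cover 31.4% to 47.8% of the Trp53 interval and Srap1 KO loci 96.9%, and at Cdkn1a only the Srap1 KO loci reach the first 2.7 kb.

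Trp53 RNA was listed in all 5 tables, and its level in Srap1 KO was lower than in each wild-type table when all loci of the interval were pooled. The pooled FPKM divides the implied fragments of all loci in an interval by their summed implied length. It was 20.5, 15.5, 14.4 and 24.1 FPKM in wild-type replicates 1 to 4 and 7.01 FPKM in Srap1 KO, a log2 difference of FPKM + 1 of -1.29. The wild-type values did not overlap the Srap1 KO value. On this scale 32.8% of 10 kb genome windows were called lower by the rule given below. Shares for the other genes and scales are given with those windows. In bulk RNA, fewer cells that express a gene and less RNA per cell cannot be told apart, and the pooled level also depends on which loci are listed.

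The Trp53 loci themselves differed less than the pooled level. The locus with the most fragments, the leading locus, stood at 19.6, 23.4, 22.8 and 21.8 FPKM in the wild-type tables. In Srap1 KO it ran from 69400753 to 69405372 at 17.9 FPKM, with deposited bounds of 16.6 and 19.2 FPKM. Those bounds touch none of the wild-type values, although the bounds of each wild-type leading locus, 12.2 to 26.9, 12.2 to 34.5, 15.1 to 30.4 and 14.6 to 29.05 FPKM, all contain the Srap1 KO value. The log2 difference between the leading loci was -0.27.

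The pooled Srap1 KO level of Trp53 also took in weaker loci in the upstream part of the gene. Before 69400753 the Srap1 KO table listed 5 loci at 1.60 to 13.8 FPKM, with 461 implied fragments together. Wild-type replicates 2 and 3 listed 1 locus each there, with 11.9 and 14.0 fragments, and replicates 1 and 4 listed none. At wild-type depth the Srap1 KO fragments would amount to 15.0 to 15.7, spread over several loci, and the 5th percentile of fragments per wild-type locus was 8.003 to 8.93. From the Srap1 KO leading locus onwards, wild-type tables held 51.3, 43.2, 52.5 and 52.3 fragments, and the 756 Srap1 KO fragments would amount to 24.6 to 25.8 at their depth. Set to the depth outside the dominant locus, the downstream part of Trp53 alone thus lay below all 4 wild-type tables.

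By fragments, the direction at Trp53 depended on the dominant locus. In FPM outside it, wild-type values were 152, 156, 193 and 147, and the Srap1 KO value was 117, below all 4. For the leading loci alone, the Srap1 KO value was 70.9, inside the wild-type range of 49.5 to 103. In FPM of all loci, wild-type values were 57.3, 60.1, 72.9 and 56.5, and the Srap1 KO value was 113, above all 4. Summed over the wild-type tables, the log2 ratio outside the dominant locus was -0.47, with a standard error of 0.10 from counting alone. RefSeq lists a Trp53 pseudogene, Trp53-ps, and the gene Wrap53 within 5 kb of Trp53. The sources used here do not say how reads were divided between such copies, and the tables carry no strand.

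Mdm2, the p53 antagonist, was higher in Srap1 KO than in every wild-type table by pooled FPKM as deposited, but by less than the 2-fold that a call required. A gene was called when the Srap1 KO value lay outside the wild-type range and the log2 difference of FPKM + 1 was at least 1 in size. Pooled Mdm2 levels were 25.0, 16.1, 26.4 and 23.8 FPKM in wild type and 31.7 FPKM in Srap1 KO, a log2 difference of 0.46. Rescaled to the depth outside the dominant locus, the direction turned: the Srap1 KO level of 32.9 lay below the wild-type range of 41.7 to 69.9, a log2 difference of -0.85. The leading Mdm2 locus was at 30.0, 27.2, 55.3 and 26.2 FPKM in wild type and at 47.7 FPKM in Srap1 KO (bounds 45.5 and 49.8 FPKM). Wild-type replicate 3 thus exceeded Srap1 KO at the leading locus.

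The Mdm2 interval was listed very differently in the genotypes. Wild-type tables had 2 to 4 loci that covered 26.3% to 37.0% of it, mostly at its low-coordinate end, the 3′ end of this minus-strand gene. The Srap1 KO table had 1 locus from 117125261 to 117147776 and 20 further loci within its span, 16 of them under 300 bases. These 20 held 1256 of the 3275 implied fragments, or 38.4%. The longest of them, 2051 bases at 117143203 to 117145254, had 12.0 FPKM and 493 fragments. The shortest, 65 bases, had 2662 FPKM on 9.59 implied fragments, so the highest FPKM in this interval says little about the level of Mdm2. RefSeq lists the gene Cpm within 5 kb of Mdm2. The leading Srap1 KO locus begins before the interval start of 117125900, and the tables carry no strand.

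Over the loci listed, Mdm2 took a larger share of fragments in Srap1 KO with and without the dominant locus. Outside it, wild-type values were 202, 223, 210 and 142 FPM, and the Srap1 KO value was 314 FPM. The log2 ratio was 0.69, with a counting error of 0.09. With the leading loci alone, the values were 166, 125, 155 and 91.7 FPM in wild type and 194 FPM in Srap1 KO. In FPM of all loci, Mdm2 stood at 76.2, 86.1, 79.4 and 54.5 in wild type and 303 in Srap1 KO. On each of these 3 counts the Srap1 KO value lay above all 4 wild-type values. Among 10 kb genome windows, 45.1% were called higher in FPM of all loci and 8.26% in FPM outside the dominant locus. A call also needs a 2-fold difference, and the share of windows merely above the wild-type range was not counted. The counts do not cover the same stretches in the 2 genotypes, however. The Srap1 KO leading locus spans nearly all of the interval. Its 194 FPM lay inside the 142 to 223 FPM that all wild-type loci gave. Apart from the locus of 2051 bases, the further Srap1 KO loci held 9.59 to 141 implied fragments each, at 29.97 times the wild-type depth. Set to wild-type depth, each of these would fall below the 5th percentile of fragments per wild-type locus, 8.003 to 8.93. Most of the further loci could thus hardly be listed in wild type, and their fragments add to the Srap1 KO count over all loci.

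Cdkn1a, the arrest gene downstream of p53, was lower in Srap1 KO by pooled FPKM, and its direction, like that of Trp53, turned with the dominant locus. Its pooled level was 13.2, 19.1, 23.7 and 18.7 FPKM in wild type and 7.46 FPKM in Srap1 KO, below each of them, with a log2 difference of -1.22. Its leading locus was at 16.0, 26.7, 28.5 and 25.8 FPKM in wild type and 14.7 FPKM in Srap1 KO (bounds 13.6 and 15.9 FPKM). Here the Srap1 KO value lay just below that of wild-type replicate 1, and the log2 difference was -0.68. Outside the dominant locus the FPM values were 158, 242, 136 and 141 in wild type and 96.4 in Srap1 KO, a log2 ratio of -0.81 with a counting error of 0.10. For the leading loci alone they were 82.0 to 104 in wild type and 67.0 in Srap1 KO. In FPM of all loci, wild-type values were 59.9, 93.5, 51.3 and 53.9, and the Srap1 KO value of 93.1 lay above 3 of them and just below that of replicate 2. The log2 difference on that scale was 0.52.

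The 5′ extent of Cdkn1a differed between the tables. In wild type the first locus began at 29230696 to 29230735. In Srap1 KO the leading locus began at 29227975, which is 2721 to 2760 bases upstream, and ran to 29238113. A second Srap1 KO locus, at 29230726 to 29234330 with 3.46 FPKM, began where the wild-type loci began. The distance between the Srap1 KO starts, 2751 bases, is close to the 2790 bases between the RefSeq starts of the gene. The upstream one is the start whose stretch, printed above, holds GAACATGTCT and the paired cores.

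The tables do not settle whether wild-type cells use this upstream Cdkn1a start. Before the first wild-type locus, the Srap1 KO table listed 2 loci lying wholly upstream, at 4.20 and 7.09 FPKM on 14.0 and 13.0 implied fragments. At wild-type depth these would amount to 0.876 to 0.920 fragments per table. The Srap1 KO leading locus, which begins at the upstream start, held 699 implied fragments, and how many of them came from its upstream end is not in the tables. The 2 small loci would not be detectable at wild-type depth, and for the upstream start itself the depth needed is unknown, so its use was not compared between the genotypes.

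Ccng1 had the highest Srap1 KO level of the 4 genes in pooled FPKM and the simplest listing. A single Srap1 KO locus, 40562027 to 40568777, had 46.4 FPKM (bounds 44.8 and 47.9 FPKM) on 3553 implied fragments. Wild-type tables had 1 or 2 loci, with pooled levels of 23.5, 20.9, 31.2 and 18.1 FPKM. The Srap1 KO level lay above all of them, and the log2 difference of 0.95 fell short of a call. It was 1.12 for the leading locus and 1.12 for the pooled level without wild-type replicate 3, both past the threshold. Rescaled to the depth outside the dominant locus it turned to -0.35, with a Srap1 KO level of 48.0 inside the wild-type range of 47.3 to 82.7.

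Pooled over the loci listed, a higher Srap1 KO count of Ccng1 fragments depended on the dominant locus. Outside the dominant locus, wild-type values were 310, 351, 204 and 319 FPM, and the Srap1 KO value of 341 FPM lay inside their range. The log2 ratio was 0.20, with a counting error of 0.08. For the leading loci alone, the Srap1 KO value of 341 FPM lay above the wild-type range of 189 to 267 FPM. That Srap1 KO locus held all Ccng1 fragments, and wild-type leading loci held 59.2% to 100% of them. In FPM of all loci, the values were 117, 135, 77.1 and 122 in wild type and 329 in Srap1 KO, which lies above them. At the share seen in Srap1 KO, 115 to 121 fragments would be listed per wild-type table, and 70.3 to 124 were.

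Lengths behind the FPKM values differed between genotypes at all 4 genes. The implied length, read against loci of 1 to 3 kb in the same table, was 1.20 to 2.54 kb at Trp53 in wild type and 8.65 kb in Srap1 KO. At Cdkn1a it was 1.09 to 2.48 kb and 6.72 kb, at Mdm2 1.17 to 2.71 kb and 5.15 kb, and at Ccng1 1.24 to 3.45 kb and 3.82 kb. Trp53 and Cdkn1a, whose pooled FPKM was lower in Srap1 KO, had the larger relative increases in implied length. By the share of the interval covered, the increase was largest at Mdm2 (26.3% to 37.0% in wild type and 99.0% in Srap1 KO), then at Trp53, and smaller at Cdkn1a (63.1% to 70.1% and 99.2%) and Ccng1 (76.4% to 96.2% and 99.3%). The part of this in their lower level was not tested beyond the leading loci and fragment shares given above.

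**Figure D2:**
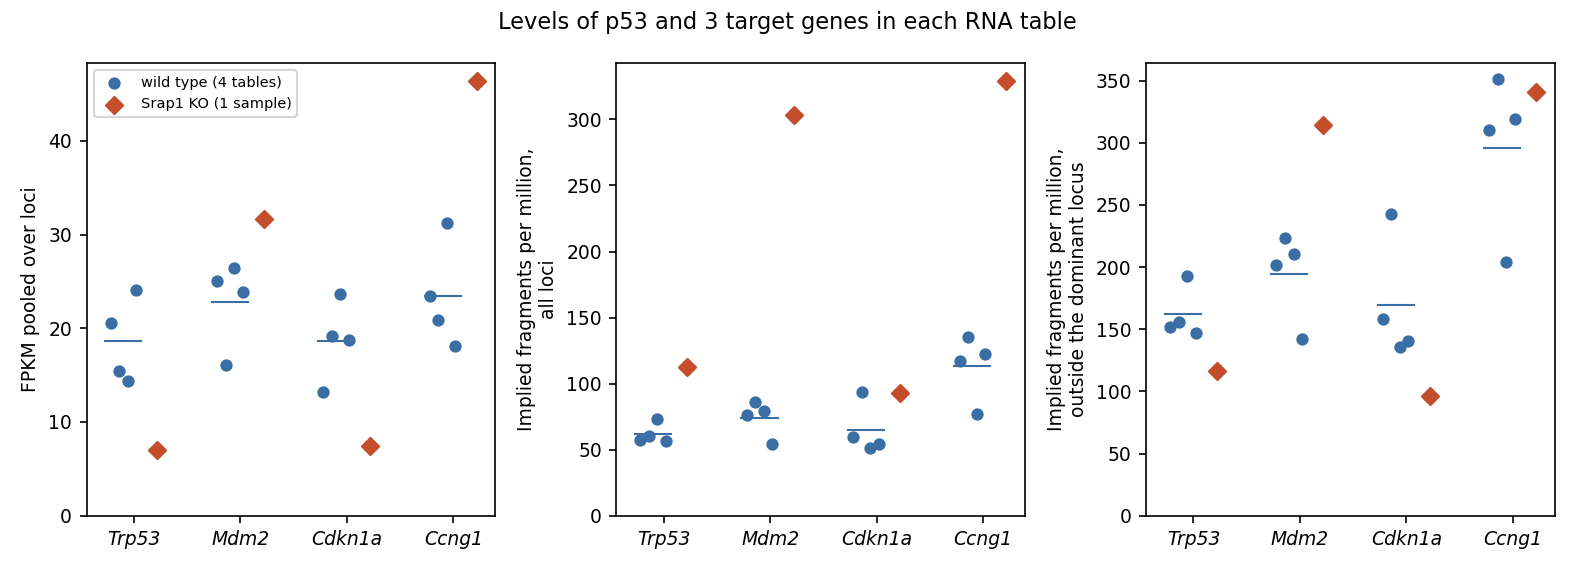
Levels of the 4 genes in each wild-type table (circles, in the order of replicates 1 to 4, line at their mean) and in Srap1 KO (diamonds), as pooled FPKM, as FPM of all loci, and as FPM outside the dominant locus. Srap1 KO Trp53 and Cdkn1a lie below every wild-type table in the left and right panels, and Srap1 KO Mdm2 lies above them in all 3.

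The 4 genes were then read against the genome, measured in the same way in 6347 windows of 10 kb that had a locus in all 5 tables. Neighbouring windows can share a locus and are not independent. By pooled FPKM 0 of the 4 genes were called higher in Srap1 KO, against 6.63% of windows. Called lower were 2 of 4, Trp53 and Cdkn1a, against 32.8% of windows. The median log2 difference was -0.55 over the windows, with quartiles of -1.29 and 0.14, and -0.38 over the 4 genes. Lower calls were common among these windows, so against them the 2 lower genes are no result particular to p53. By Srap1 KO level, 1.05% to 32.9% of windows had a locus in all 4 wild-type tables. The rest are left out, and whether this shifts the background was not tested. With each wild-type table set against the other 3, 5.42%, 6.32%, 5.64% and 5.92% of 6609 windows were called, and 0 of the 4 genes each time. These tables are of like depth and were counted as 1 sample. Their comparison therefore measures neither the spread between cultures nor the effect of the depth difference between the genotypes. The wild-type range in the call rule has the same limit.

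Outside the dominant locus, 0 of the 4 genes were called in either direction in FPM, against 8.26% of windows higher and 29.1% lower. The median over windows was -0.45 on this scale. In FPM of all loci, Mdm2 and Ccng1 were called higher, at log2 differences of 2.02 and 1.53, where 45.1% of windows were called higher and 11% lower. Pooled FPKM rescaled to the depth outside the dominant locus called 0 of 4 higher, against 0.394% of windows, and again Trp53 (-2.59) and Cdkn1a (-2.52) lower, against 79.5%. By the highest FPKM in an interval, Mdm2 was called higher, through its locus of 65 bases, against 30.4% of windows, and Cdkn1a lower, against 14.7%. Setting the median of the windows to 0 called Mdm2 and Ccng1 higher, at 1.00 and 1.50, against 16.4% of windows, and then called neither Trp53 nor Cdkn1a lower, against 18.4%. By the leading locus, Ccng1 alone was called higher, against 11.3% of windows, and 0 of 4 lower, against 25% of windows. No scale that was run called Cdkn1a or Trp53 higher.

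**Figure D3:**
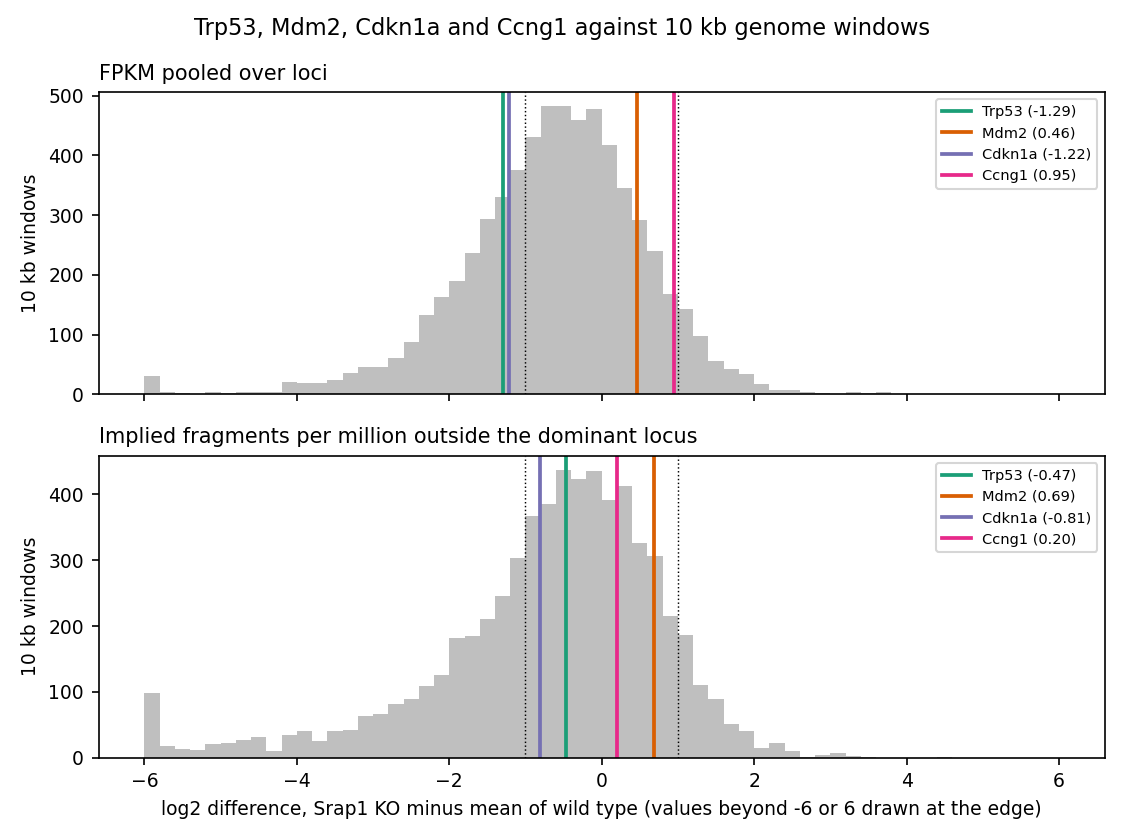
Histograms of the log2 difference between Srap1 KO and the wild-type mean in 6347 windows of 10 kb, by pooled FPKM (top) and by FPM outside the dominant locus (bottom), with the 4 genes as coloured lines and the call threshold dotted. In the top panel Trp53 (-1.29) lies at the lower quartile of the windows, and Mdm2 (0.46) and Ccng1 (0.95) lie above the upper quartile of 0.14. Trp53 and Cdkn1a lie to the left of Mdm2 and Ccng1 in both panels.

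Ratios between the genes within a table do not depend on how tables are scaled, but they do depend on the loci each table lists. Mdm2 had 1.33, 1.43, 1.09 and 0.966 times the implied fragments of Trp53 in the wild-type tables and 2.69 times in Srap1 KO, above all 4. The log2 change of this ratio was 1.17, with a counting error of 0.14. From the leading loci alone the ratio was 1.98, 2.53, 1.495 and 0.890 in wild type and 2.73 in Srap1 KO, a log2 change of 0.79 with an error of 0.18. Listed Mdm2 fragments were thus more numerous relative to Trp53 fragments in Srap1 KO by either count. The margin over wild-type replicate 2 was smaller in the second. Neither count sets like parts side by side. The leading Mdm2 locus spanned 22515 bases in Srap1 KO and 2700 to 6345 in wild type. Leading loci held 31.7% to 69.9% of the Trp53 fragments in wild type and 60.7% in Srap1 KO. The count over all loci takes in Srap1 KO loci that wild type did not list.

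The ratio of Ccng1 to Trp53 was 2.05, 2.25, 1.06 and 2.16 in wild type and 2.92 in Srap1 KO, a log2 change of 0.67 with a counting error of 0.13. From the leading loci it was 2.32, 5.38, 1.97 and 1.83 in wild type and 4.81 in Srap1 KO, a log2 change of 0.93 with an error of 0.17. Wild-type replicate 2 alone exceeded Srap1 KO there. Cdkn1a to Trp53 was 1.05, 1.55, 0.704 and 0.955 in wild type and 0.826 in Srap1 KO, inside the range. The log2 change was -0.34, with an error of 0.15. Of the 3 targets, only Mdm2 lay above the wild-type range relative to Trp53 both over all loci and over the leading loci, while Ccng1 did so over all loci and, over the leading loci, above 3 of the 4 tables. These ratios were chosen after the levels had been seen and carry no test.

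**Figure D4:**
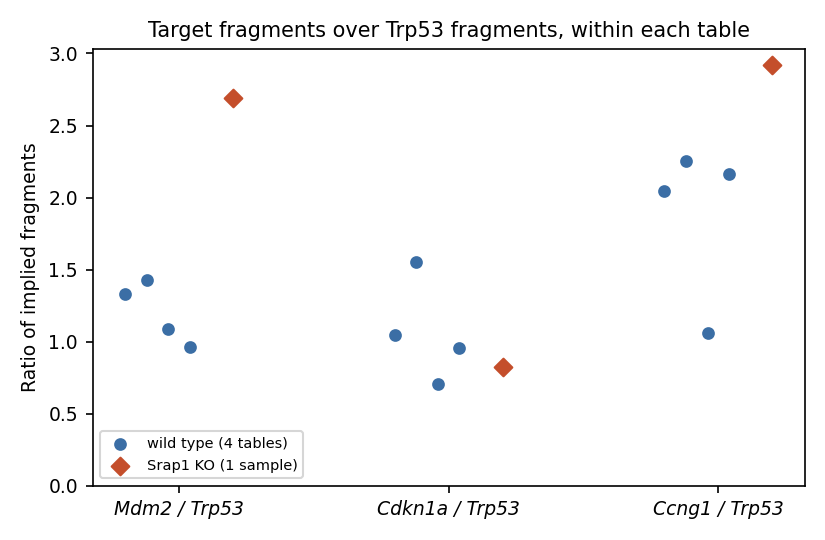
Implied fragments of Mdm2, Cdkn1a and Ccng1 divided by those of Trp53 in the same table, for the 4 wild-type tables (circles) and Srap1 KO (diamonds). Srap1 KO lies above the circles for Mdm2 (2.69) and Ccng1 (2.92) and among them for Cdkn1a (0.826).

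The depth of the wild-type tables was enough to list all 4 genes, but not their weaker parts. Of 3789 windows with 1000 to 3000 implied fragments in Srap1 KO, the range that holds Trp53 and Cdkn1a, 77.1% to 78.4% had a locus in a given wild-type table and 62.0% in all 4. Of 605 windows with at least 3000 fragments, where Mdm2 and Ccng1 fall, 83.6% had one in all 4. Of 8999 windows under 30 fragments, a range that holds the sum of the upstream Cdkn1a loci, 1.38% did. The 4 genes rested on 46.8 to 124 implied fragments per wild-type table, so 1 table alone fixes none of them closely.

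**Figure D5:**
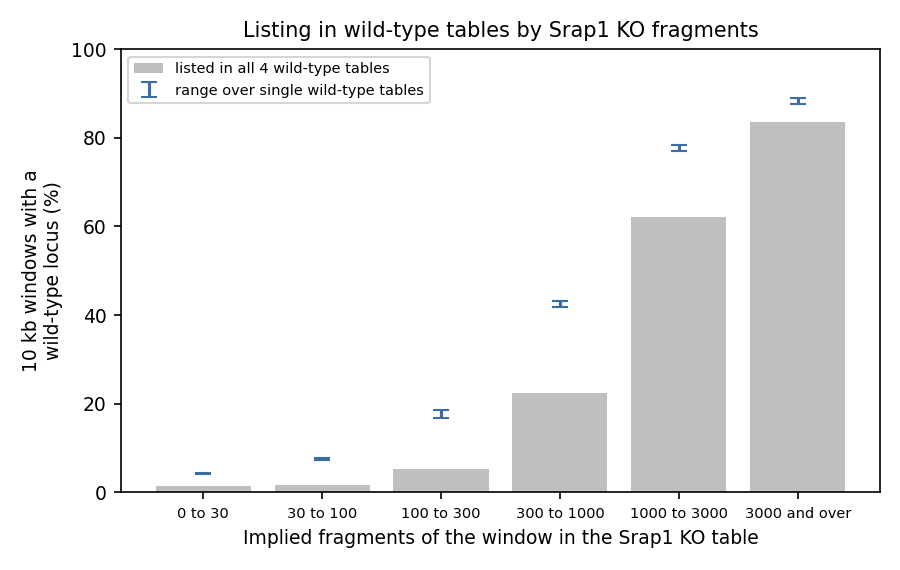
Share of 10 kb windows with a locus in all 4 wild-type tables (bars) and in single wild-type tables (lowest to highest, whiskers), by the number of implied fragments of the window in the Srap1 KO table. The share listed in all 4 tables rises from 1.38% under 30 fragments to 83.6% at 3000 and over.

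Other genes of the p53 pathway, among them Bax, Bbc3, Gtse1, Sesn2 and Ppm1d, had been planned and were not analysed here, because no positions on mm9 were at hand for them. For the same reason no gene could be named whose pattern resembles these 4.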

How the data were processed

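RNA libraries of wild-type (4) and Srap1 KO (2) ES cells were analysed. The authors deposited FPKM with lower and upper bounds per locus, in a Cufflinks layout per the file headers. Build mm9 and the tools Cufflinks 2.2.1.0, Bowtie 0.12.8 and Trim Galore 0.3.5, with no settings, are named per the submitters' processing notes. Loci were assembled per table, so their ends and lengths differ. The kit was stranded per the labels' protocols; strand is not in the tables.

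Implied fragments were taken from the upper bound, read as 2 standard deviations of a Poisson count, which is an approximation. The pooled FPKM of an interval is its implied fragments divided by the sum of fragments over FPKM. The implied length divides that sum by the 90th percentile of fragments over FPKM per kb, among loci of 1 to 3 kb. Differences were taken as log2(FPKM + 1), a scale on which low loci appear to change less than they do. A call needed a Srap1 KO value outside the wild-type range and a log2 difference of at least 1. Intervals and errors cover counting only. The 4 genes were named by rule and are all reported, and planned pathway genes and cell markers lacked mm9 positions. Genes and lists were chosen with earlier results of these data known. Python 3.11.15, numpy 2.4.6 and pandas 2.3.3 were used. The alternatives covered pseudocount, scaling, level, overlap, windows and each wild-type table left out. IgG control libraries were not used here.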

Additional observations from a re-analysis of the deposited data

Results flagged for a closer look

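Among 16 sets of wild-type values at the 4 genes, 1 held a value well apart, and about 1 set in 20 does so by chance. The leading Mdm2 locus stood at 55.3 FPKM in wild-type replicate 3 and at 26.2 to 30.0 FPKM in the other 3. Its implied fragments, 53.3, lay within the 32.6 to 56.3 of the others. The implied length of all Mdm2 loci in that table was 1.51 kb, and that of the leading locus alone was not computed.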

How the results depend on the processing

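FPM outside the dominant locus, the leading locus and a minimum width of 300 bases were chosen after seeing the data. Over 15 settings, the main one included, Mdm2 and Ccng1 were higher in Srap1 KO in 14 each, and Trp53 and Cdkn1a lower in 14 each. The settings are not independent, so these counts do not measure how firm a direction is. A changed pseudocount cannot alter a sign, and requiring at least 50% of a locus in the interval left the values of the genes unchanged. Leaving out a wild-type table or setting a minimum width reuses the same deposited FPKM. Directions reversed only under changes of scale. Pooled FPKM rescaled to fragments outside the dominant locus reversed Mdm2 to -0.85 and Ccng1 to -0.35. FPM of all loci reversed Trp53 to 0.86 and Cdkn1a to 0.52, and called Mdm2 (2.02) and Ccng1 (1.53). Trp53 and Cdkn1a lost their calls at a pseudocount of 5 (-0.98 and -0.93), with median scaling (-0.75 and -0.67), at the leading locus (-0.27 and -0.68) and by FPM outside the dominant locus (-0.47 and -0.81). By the highest FPKM Trp53 lost its call (-0.59) and Mdm2 rose to 6.22, through the locus of 65 bases. Mdm2 and Ccng1 passed the threshold with median scaling (1.00 and 1.50), and Ccng1 at the leading locus (1.12). Without each wild-type table in turn, Trp53 ranged from -1.39 to -1.15, Cdkn1a from -1.35 to -1.09, Mdm2 from 0.33 to 0.53 and Ccng1 from 0.85 to 1.12, the last called only without replicate 3. The windows called, 421 higher and 2081 lower of 6347, were 459 to 499 and 2366 to 2393 of the 7028 to 7108 that qualify in these. Of the same 6347, they were 25 and 5043 after rescaling outside the dominant locus, 1042 and 1171 with median scaling, 1927 and 931 by the highest FPKM, and 2860 and 697 by FPM of all loci. With at least 50% of a locus in the window, 187 and 977 of 2736 windows were called, where fewer windows qualify. Windows higher numbered 738 of 8826 at 5 kb, 233 of 4847 at 20 kb and 719 of 6347 at the leading locus. The cause of these changes was not tested except where stated. No paired analysis was possible because the Srap1 KO tables count as 1 sample. Depth limits what can be read from wild-type loci of few fragments.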
